A study of Rattus norvegicus with 12 samples.

Results

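The sterol and fatty acid synthesis program was followed as 32 listed genes, namely 16 enzymes that build cholesterol from acetyl-CoA, 11 enzymes that make, elongate, desaturate or activate fatty acids, and 5 regulators built around the sterol regulatory element-binding proteins (SREBPs). Members were picked from a list of gene symbols, which was drawn up with earlier results of these data known, and each was read from its brightest probe set, the one with the highest mean log2 intensity over all arrays. Of the 32 genes, 31 were measured among 14217 genes in all. Hmgcs1, the cytosolic HMG-CoA synthase, was not analysed here because no probe set carried its name in the annotation used.

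Animal cells build cholesterol by joining acetyl units into mevalonate, turning mevalonate into isoprenoid units, condensing these into squalene, and closing and trimming squalene into sterols. Fatty acids are built from the same acetyl-CoA by way of malonyl-CoA and palmitate, and are then elongated and desaturated. Both arms are under the transcription factors SREBP-1 and SREBP-2, the products of Srebf1 and Srebf2. These are held in the endoplasmic reticulum with the escort protein Scap by the Insig proteins when sterols are plentiful, and are carried to the Golgi and cleaved when sterols run low. Srebf2 is known mainly for the sterol genes and Srebf1 for the fatty acid genes. The cleaved factors are known to bind sterol regulatory elements, often beside a CCAAT box bound by NF-Y or a GC box bound by Sp1.

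The cells were F111, a normal fibroblast line of the Fischer rat. A16 was F111 grown on plastic for 16 h, and it served as the reference. Tumor was cells cultured out of tumours that had formed in nude mice 3 months after subcutaneous injection of F111 cells held in suspension for 16 h. Both groups therefore derived from 1 cell line, but by the study their karyotypes differed. A translocation seen in a minority of A16 cells was found in all tumour-derived cells examined, and other chromosomal abnormalities were also increased there. Karyotype and group cannot be told apart, and the part of karyotype in the results was not tested. The labels give 10% serum for both groups, but by the methods of the study explants from tumours were kept in more serum, and serum and group cannot then be told apart. The explant cultures could hold host cells of the mouse, and in such bulk samples fewer cells of a type and less RNA per cell cannot be told apart. Each group had 3 Affymetrix rat expression arrays. Technical replicate 2 was averaged with replicate 1, which gave n = 2 replicates per group. The labels call replicates 1 and 2 biological, without saying whether these were separate cultures or animals, and p-values cover only the spread between them.

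Levels are given as log2 of the RMA intensity, in the order replicate 1, technical replicate 2, replicate 2. Differences are Tumor minus A16 on the log2 scale with the moderated standard error (SE) of limma. A gene was called at a Benjamini-Hochberg adjusted p under 0.05, taken over all 31042 probe sets tested, with a fold of at least 2. "Rose" and "fell" are used for called genes. Probe sets differ in how brightly they read, so that brightness served to choose a probe set and to say which were dim, while groups were compared only within a probe set or over the same set of them.

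Array medians lay between 6.62 and 6.64 on the log2 scale. Arrays correlated at 0.991 to 0.997 within a group and at 0.933 to 0.949 between groups. The poly-A spikes, added to RNA before labelling, averaged 7.69 on the A16 arrays (7.51 to 7.99) and 4.87 on the Tumor arrays (4.82 to 4.92). The Trp control, for which no transcript was added, read 4.21 to 4.30 in A16 and 4.21 to 4.22 in Tumor. The poly-A spikes of Tumor therefore lay near the floor, and whether they were added in full is not known. The excess of the 3′ over the 5′ probe set was 0.68 for beta-actin in A16 and 2.32 in Tumor, 1.06 against 2.02 for hexokinase and -0.035 against 0.28 for Gapdh. The hybridisation spikes, added after labelling, averaged 9.96 in A16 and 11.01 in Tumor. The ranges of the groups did not overlap in any of these measures other than Trp, so that labelling and group cannot be told apart. The part of these measures in the results was not tested.

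The fibroblast label was set against 10 markers, of which 4 fell in Tumor and 0 rose. Those that fell were the collagen genes Col1a1 (-3.46) and Col1a2 (-1.39), the surface marker Thy1 (-1.95) and fibronectin (Fn1, -1.27), as log2 differences. Pdgfra read 10.30 to 10.51 and Col3a1 11.26 to 12.16 on all 6 arrays without passing the test. Vimentin (Vim) read 14.17 to 14.36 on all 6 arrays. Their summed intensity was 81603 to 89695 on the A16 arrays and 53055 to 54513 on the Tumor arrays, while decorin (Dcn, 4.58 to 5.38) and lumican (Lum, 4.46 to 5.29) read below the 30th percentile of all probe sets (5.54) on all 6 arrays. Adipocytes are a cell type known for the fatty acid arm of this program. Of 9 adipocyte markers measured 0 rose and 1 fell, and their summed intensity was 468 to 502 in A16 and 410 to 429 in Tumor. The marker that fell was Cfd (-1.05), the brightest of the 9. Without the fold criterion 2 of the 9 were higher and 1 was lower, against 17.4% and 16.6% of all genes. The higher ones were Lpl (0.68, adjusted p 0.0237) and Fabp4 (0.61, adjusted p 0.0074), at 5.14-fold and 2.05-fold in the PLIER values. Adiponectin (Adipoq) read 5.11 to 5.63 and perilipin 1 (Plin1) 4.84 to 5.15 over all 6 arrays, without being called. Of 8 macrophage markers 2 rose, Csf1r (3.14, adjusted p 3.32e-05) and Cd68 (1.07, adjusted p 0.000965). Csf1r was 8.80-fold higher, and 18.4-fold in the PLIER values. In all, 6 of the 8 had a positive difference and 2 a negative one. The summed intensity went from between 1255 and 1412 in A16 to between 1645 and 1717 in Tumor. Cd14, the brightest of the 8, weighs most in this sum, and it read 9.70 to 10.01 over all 6 arrays without being called. The pan-leukocyte marker Ptprc read 4.78 to 5.42 and Adgre1 3.88 to 4.18 over all 6 arrays. Of 6 epithelial markers Krt8 alone rose, and Cdh1 was higher past the adjusted p at under 2-fold (0.93, adjusted p 0.00169). Their summed intensity was 893 to 1023 in A16 and 2185 to 2416 in Tumor. Krt8, the brightest of the 6, weighs most in this sum. It read 9.39 to 9.64 in A16 and 10.94 to 11.09 in Tumor. The differences were positive for 2 of the 6 and negative for 4, with a median of -0.12. Of 6 endothelial markers measured 0 were called. Vwf (0.73, adjusted p 0.0038) and Pecam1 (0.53, adjusted p 0.0377) were higher past the adjusted p at under 2-fold. The summed intensity of the endothelial markers was 225 to 250 in A16 and 270 to 320 in Tumor. Among all genes 5.45% were called higher and 5.44% lower. The part of these markers in the results was not tested.

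Promoter sequence is shown for 4 members, picked with their values known as examples of a large change, moderate changes and a change that did not pass the test. The stretches are the 150 bases directly upstream of the annotated transcription start, outside the gene itself, from RefSeq on the GRCr8 assembly. They lie at chr1:253118227-253118376 on the plus strand for Scd2, the member with the largest difference, at chr17:66547525-66547674 on the minus strand for Idi1, a sterol gene that rose, at chr1:208444284-208444433 on the plus strand for Dhcr7, another sterol gene that rose, and at chr12:47819504-47819653 on the minus strand for Mvk, a sterol gene that was not called. Capitals mark CCAAT or its reverse complement ATTGG.
Scd2: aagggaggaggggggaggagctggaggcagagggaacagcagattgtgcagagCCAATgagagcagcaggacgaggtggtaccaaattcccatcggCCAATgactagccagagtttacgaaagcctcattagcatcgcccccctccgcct
Idi1: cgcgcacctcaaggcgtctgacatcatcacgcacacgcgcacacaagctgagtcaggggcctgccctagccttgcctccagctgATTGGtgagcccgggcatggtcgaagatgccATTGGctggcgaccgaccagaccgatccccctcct
Dhcr7: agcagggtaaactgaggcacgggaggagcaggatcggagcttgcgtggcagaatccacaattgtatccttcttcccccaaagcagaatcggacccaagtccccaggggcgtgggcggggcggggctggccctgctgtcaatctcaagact
Mvk: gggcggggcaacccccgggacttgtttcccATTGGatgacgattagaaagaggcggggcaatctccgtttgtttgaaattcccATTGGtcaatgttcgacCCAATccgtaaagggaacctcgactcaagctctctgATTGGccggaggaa
Scd2 and Idi1 held 2 CCAAT boxes each in these stretches, Dhcr7 held 0 and Mvk held 4.

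Over the whole program, 10 of the 31 measured members rose, 0 fell and 21 were not called, where 5.45% of all 14217 genes were called higher and 5.44% lower. Without the fold criterion, 23 members were higher and 1 was lower at an adjusted p under 0.05, against 17.4% and 16.6% of all genes, which leaves 7 that did not pass. The median difference of the program was 0.74, whereas that of all genes was 0.026. All 3 Tumor arrays lay above all 3 A16 arrays for 25 members, below them for 2, and overlapped for 4. Among all genes the Tumor arrays lay wholly above for 28.6% and wholly below for 27.3%. By size, 10 members were higher at 2-fold or more and 13 passed the adjusted p upward at under 2-fold.

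**Figure D1:**
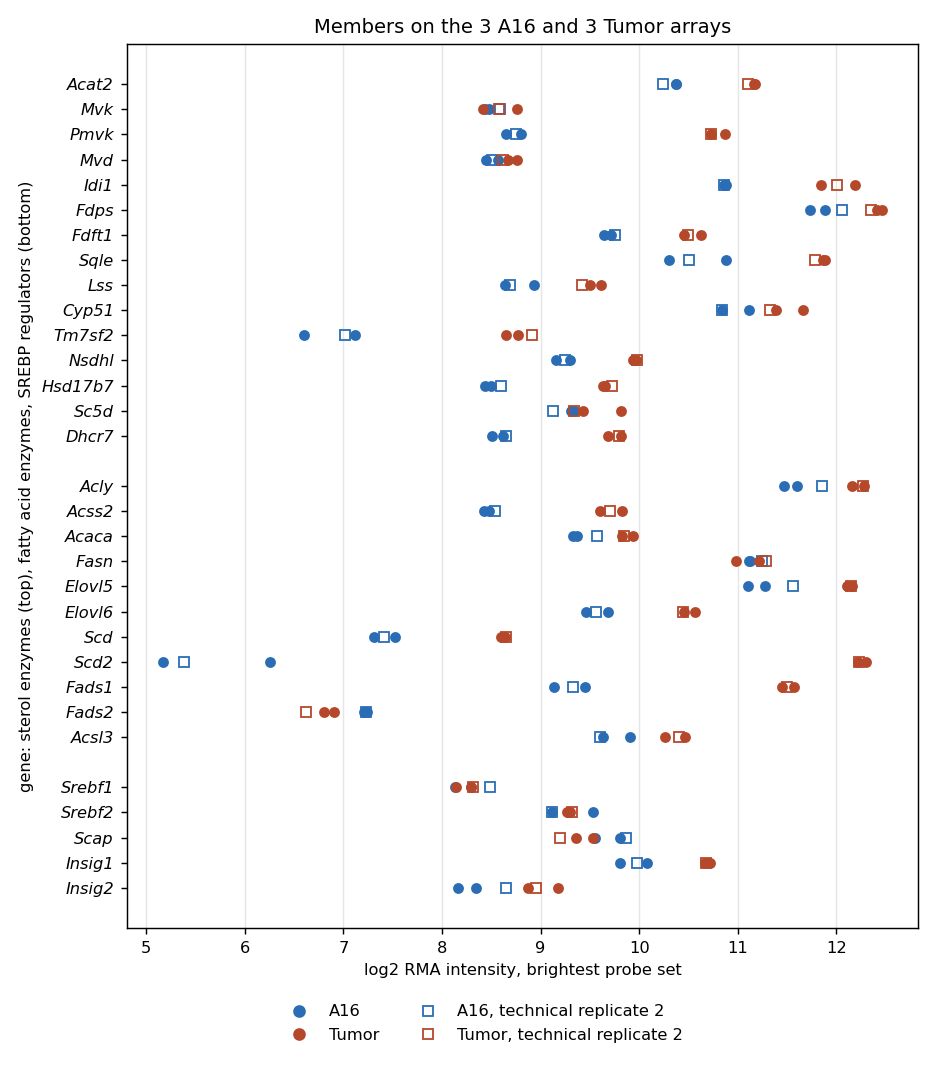
Log2 RMA intensity of the 31 measured members on each array (x axis), with A16 in blue and Tumor in red, and technical replicate 2 as open squares. Scd2 stands apart, at 5.17 to 6.25 in A16 and 12.22 to 12.30 in Tumor, while Fasn, Srebf1 and Mvk overlap between groups.

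Most of the sterol arm was higher in Tumor. All 15 measured enzymes had a positive difference, 6 rose, and another 6 passed the adjusted p at under 2-fold, while Mvk, Mvd and Sc5d did not pass. Differences ran from 0.15 for Mvk to 2.08 for Pmvk, with a median of 0.81. In 14 of the 15, all Tumor arrays lay above all A16 arrays, where 28.6% of all genes did so. Among all genes 5.45% were called higher, and 17.4% passed the adjusted p upward at any fold.

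The early part of the pathway, from acetyl-CoA to farnesyl diphosphate, held 6 measured enzymes, of which 2 rose and 4 passed the adjusted p (median 0.69). The shares of all genes were 5.45% called higher and 17.4% past the adjusted p upward. Pmvk, the phosphomevalonate kinase that adds the second phosphate to mevalonate, read 8.80, 8.75 and 8.65 in A16 and 10.73, 10.73 and 10.87 in Tumor. The groups were far apart, and the difference was 2.08 ± 0.12 (SE, n = 2 per group; 4.24-fold, adjusted p 7.72e-05). Idi1, the isomerase that interconverts the 2 isoprenoid units, read 10.86, 10.86 and 10.88 in A16 and 12.19, 12.01 and 11.84 in Tumor. The A16 arrays were nearly equal and the Tumor arrays spread more, with a difference of 1.10 ± 0.13 (2.14-fold, adjusted p 0.00123). Without Tumor replicate 1 this difference was 0.97, under 2-fold.

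The enzymes next to Pmvk in the pathway did not share its change. Mvk, the mevalonate kinase directly before it, read 8.48, 8.59 and 8.43 in A16 and 8.42, 8.58 and 8.76 in Tumor, which overlap. Its difference was 0.15 (95% interval -0.17 to 0.47). Mvd, the decarboxylase directly after Pmvk, read 8.44, 8.51 and 8.57 in A16 and 8.67, 8.62 and 8.76 in Tumor. These did not overlap, but the difference of 0.18 (95% interval -0.10 to 0.46) did not pass the test. Acat2, the thiolase that opens the pathway, and Fdps, the farnesyl diphosphate synthase, passed the adjusted p at 1.76-fold (0.00211) and 1.49-fold (0.0158).

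The late part, from squalene to cholesterol, held 9 measured enzymes, of which 4 rose and 8 passed the adjusted p (median 0.84). The Tumor arrays lay above the A16 arrays in all 9. For all genes the share wholly above was 28.6%, with 5.45% called higher and 17.4% past the adjusted p upward. Sqle, the squalene epoxidase that is a known control point of the pathway, read 10.30, 10.51 and 10.88 in A16 and 11.86, 11.78 and 11.88 in Tumor. A16 replicate 2 was the highest of its group, and the difference was 1.21 ± 0.17 (2.31-fold, adjusted p 0.0027). Without A16 replicate 1 it was 0.97, under 2-fold.

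Tm7sf2, a sterol reductase of the endoplasmic reticulum, read 7.11, 7.02 and 6.60 in A16 and 8.77, 8.91 and 8.65 in Tumor. Its difference was 1.91 ± 0.18 (3.76-fold, adjusted p 0.000497), below that of Pmvk, whereas the PLIER values gave 2.46 for Tm7sf2 and 2.44 for Pmvk. Hsd17b7, a 3-ketosteroid reductase of the demethylation steps, read 8.50, 8.60 and 8.43 in A16 and 9.63, 9.72 and 9.65 in Tumor (2.26-fold, adjusted p 0.000562). Dhcr7, the reductase that closes the pathway to cholesterol, read 8.50, 8.65 and 8.62 in A16 and 9.68, 9.79 and 9.81 in Tumor (2.27-fold, adjusted p 0.000511). The spread within each group was small beside the gap for both of these genes.

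The remaining late enzymes stayed under 2-fold. Fdft1, the squalene synthase, Lss, the lanosterol synthase, Cyp51, the lanosterol demethylase, and Nsdhl, a dehydrogenase of the demethylation steps, had differences of 0.84, 0.74, 0.60 and 0.74, all past the adjusted p (0.00229 to 0.0192). Sc5d, the lathosterol desaturase, read 9.31, 9.13 and 9.34 in A16 and 9.43, 9.34 and 9.82 in Tumor. The highest A16 array and the lowest Tumor array both rounded to 9.34, and the difference of 0.32 (95% interval -0.07 to 0.72) did not pass.

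The fatty acid arm was more uneven. Of its 11 enzymes 4 rose, another 5 passed the adjusted p upward at under 2-fold, Fads2 passed it downward at under 2-fold, and Fasn did not pass. Differences ran from -0.44 for Fads2 to 6.48 for Scd2, with a median of 0.88. The Tumor arrays lay wholly above A16 for 9 of the 11, against 28.6% of all genes. Among all genes 5.45% were called higher and 17.4% passed the adjusted p upward.

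The desaturases held both ends of this range. Scd2, a stearoyl-CoA desaturase that makes monounsaturated fatty acids, read 5.17, 5.38 and 6.25 in A16 and 12.30, 12.22 and 12.23 in Tumor. In A16 it was dim, with replicate 1 and technical replicate 2 under the 30th percentile of all probe sets (5.54), and its replicates differed, whereas the Tumor arrays were nearly equal. The difference was 6.48 ± 0.29 (89.3-fold, adjusted p 3.32e-05). In the PLIER values it was 6.02 (64.8-fold), and since A16 was so dim the size of the fold is uncertain. Its paralog Scd, also on chromosome 1, read 7.31, 7.42 and 7.53 in A16 and 8.60, 8.65 and 8.64 in Tumor. Scd rose by far less, at 1.19 ± 0.12 (2.28-fold, adjusted p 0.00062), and by 4.15-fold in the PLIER values. The genes lie 87531 bases apart with 1 coding gene between them, and whether their probe sets share signal was not tested.

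Fads1 and Fads2, the delta-5 and delta-6 desaturases of polyunsaturated fatty acids, are also neighbours on chromosome 1, with a gap of 80414 bases and 0 coding genes between them. They went opposite ways. Fads1 read 9.14, 9.32 and 9.45 in A16 and 11.57, 11.49 and 11.44 in Tumor, a difference of 2.15 ± 0.13 (4.43-fold, adjusted p 8.58e-05). Fads2 read 7.24, 7.23 and 7.21 in A16 and 6.90, 6.63 and 6.80 in Tumor. All Tumor arrays were below the 3 almost equal A16 arrays, and the difference of -0.44 ± 0.11 passed the adjusted p (0.0224) at under 2-fold. PLIER gave 2.15 and -0.45 for the pair.

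Enzymes that supply acetyl-CoA were both higher. Acss2, which makes acetyl-CoA from acetate, read 8.43, 8.54 and 8.48 in A16 and 9.60, 9.70 and 9.83 in Tumor (2.39-fold, adjusted p 0.000532). Acly, which makes it from citrate, read 11.60, 11.85 and 11.47 in A16 and 12.16, 12.27 and 12.28 in Tumor (1.57-fold, adjusted p 0.0102). The groups did not overlap for either gene.

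Neither of the enzymes that make palmitate was called. Acaca, the acetyl-CoA carboxylase that commits carbon to fatty acids, read 9.37, 9.57 and 9.33 in A16 and 9.94, 9.85 and 9.83 in Tumor (1.38-fold, adjusted p 0.0238). Fasn, the fatty acid synthase, read 11.13, 11.24 and 11.12 in A16 and 11.21, 11.29 and 10.98 in Tumor. The groups overlapped, with a difference of -0.035 (95% interval -0.35 to 0.28) that was 0.061 in the PLIER values, so that its sign was not settled. The elongases Elovl5 and Elovl6 and the acyl-CoA synthetase Acsl3 were higher at under 2-fold, with differences of 0.88, 0.94 and 0.59 (adjusted p 0.00156 to 0.0211).

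**Figure D2:**
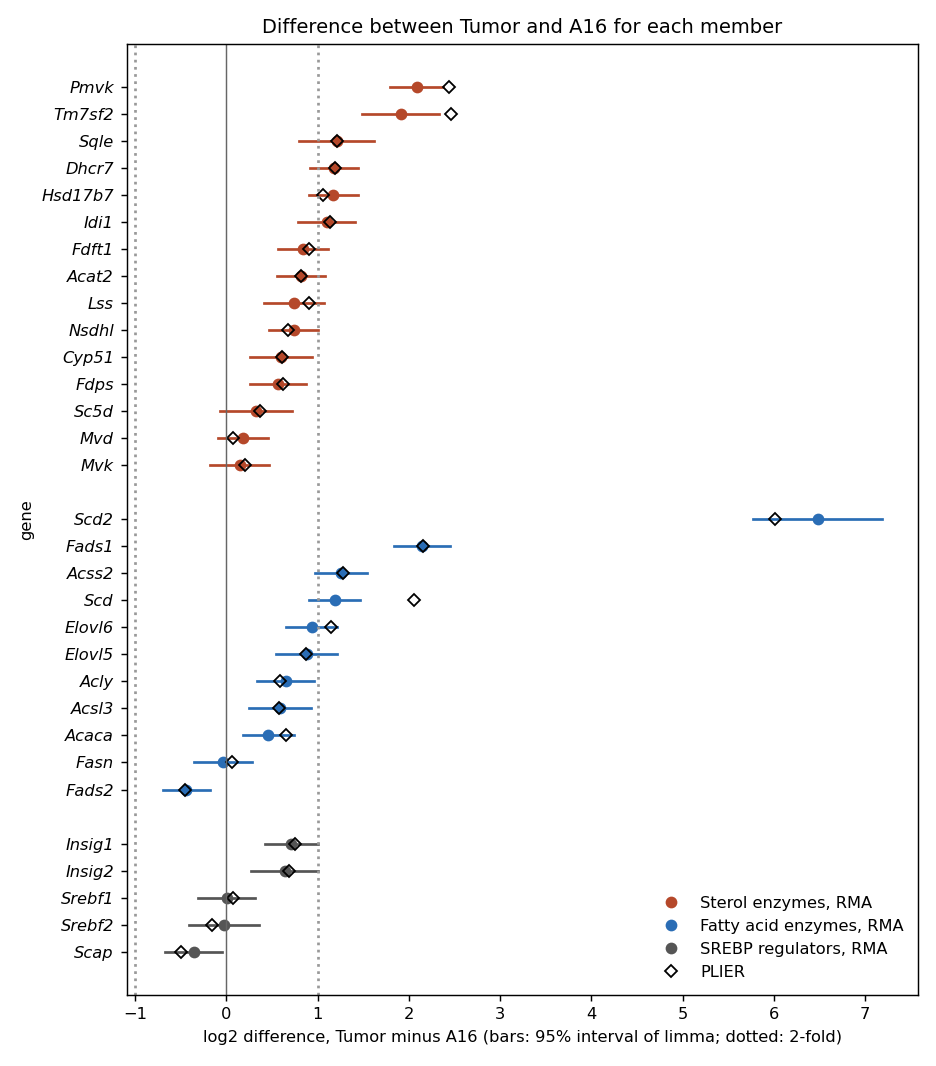
Log2 difference, Tumor minus A16, of each member by arm (filled points, RMA, with the 95% interval of limma) beside the PLIER value (open diamonds). The dotted lines mark 2-fold, and Scd2 lies at 6.48, far to the right of all other members.

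Among the 5 regulators 0 were called in either direction, where 10.9% of all genes were, so that so few genes could show little. Srebf1 read 8.30, 8.49 and 8.13 in A16 and 8.15, 8.31 and 8.30 in Tumor, with a difference of 0.0040 (95% interval -0.31 to 0.32). Srebf2 read 9.11, 9.11 and 9.53 in A16 and 9.27, 9.32 and 9.30 in Tumor, with a difference of -0.028 (95% interval -0.41 to 0.35). Both overlapped between the groups, and both intervals lay within 2-fold in either direction. Scap read 9.56, 9.86 and 9.81 in A16 and 9.36, 9.20 and 9.53 in Tumor. All Tumor arrays were lower, but the difference of -0.36 ± 0.13 did not pass (adjusted p 0.0855).

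The Insig genes were the regulators that passed the adjusted p, both at under 2-fold. Insig1, itself known as a target of SREBP, read 9.81, 9.97 and 10.08 in A16 and 10.67, 10.68 and 10.72 in Tumor (1.64-fold, adjusted p 0.00531). Insig2 read 8.35, 8.65 and 8.16 in A16 and 9.18, 8.96 and 8.87 in Tumor (1.56-fold, adjusted p 0.0196). The Tumor arrays lay above the A16 arrays for both, as they did for 28.6% of all genes. The arrays measure mRNA, so that cleavage of SREBP was not seen here.

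Set side by side, the enzyme arms had similar shares of called members, 6 of 15 (40.0%) in the sterol arm and 4 of 11 (36.4%) in the fatty acid arm, where 5.45% of all genes were called higher. Past the adjusted p upward at any fold were 12 of 15 and 9 of 11, against 17.4% of all genes. The sterol median minus the fatty acid median was -0.065, and it changed sign with the processing, at 0.034 with PLIER and 0.22 when all probe sets of a gene were averaged, so that no order of the arms can be given. This contrast had no test, since members of an arm share arrays and are not replicates. Without Scd2, the fatty acid median was 0.77. The arms differed in their range, since the sterol arm spanned 0.15 to 2.08 and the fatty acid arm -0.44 to 6.48.

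Averaged over members, each enzyme arm was steady within a group. The sterol enzymes averaged 9.42, 9.43 and 9.41 in A16 and 10.29, 10.28 and 10.37 in Tumor. The fatty acid enzymes averaged 9.09, 9.21 and 9.21 in A16 and 10.49, 10.46 and 10.45 in Tumor. Scd2 widens this gap, with a difference of 6.48 where the next largest in the arm was 2.15, so that these averages give no order of the arms. The regulators averaged 9.02, 9.22 and 9.14 in A16 and 9.32, 9.29 and 9.34 in Tumor, and spread more widely in A16 than either enzyme arm.

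**Figure D3:**
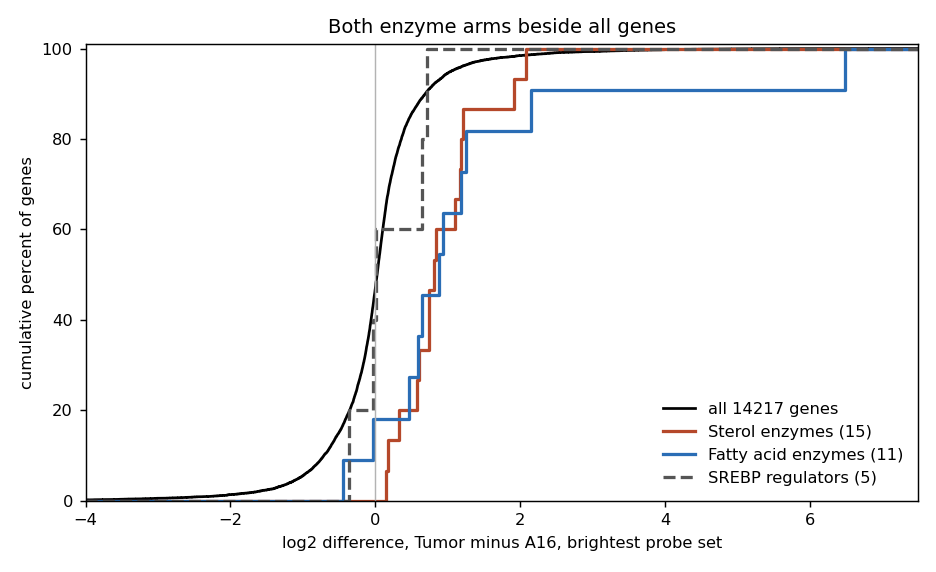
Cumulative percent of genes (y axis) by log2 difference, Tumor minus A16 (x axis), for the sterol enzymes, the fatty acid enzymes, the SREBP regulators and all 14217 genes. Both enzyme curves lie to the right of the curve of all genes, with medians of 0.81 and 0.88 against 0.026, and the fatty acid curve runs out to 6.48.

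Several members were measured by more than 1 probe set, and these did not always move together. Of the 17 such members, 7 had differences of both signs, where 48.2% of the 4525 genes with several probe sets did. In 2 members, Acaca and Elovl5, probe sets passed the adjusted p in both directions, which 5.92% of such genes did. The dimmer probe set of Acaca read 6.88, 6.85 and 7.51 in A16 and 6.21, 5.98 and 6.08 in Tumor, a difference of -1.10 ± 0.21 (adjusted p 0.00853), called lower, where the brighter gave 0.46. For Elovl5 the dimmer probe set read between 8.81 and 9.40 in A16 and between 7.19 and 7.71 in Tumor, a difference of -1.68 ± 0.22 (adjusted p 0.00193), also called lower, where the brighter gave 0.88. The direction of these 2 genes therefore rests on the choice of probe set. Where on the transcript a probe set lies is not given in the sources used here, and the part of the larger 3′ excess in Tumor, 2.32 against 0.68 for beta-actin, was not tested.

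Of the 8 sterol enzymes with several probe sets, Mvk and Sc5d had differences of both signs. For Mvk the second probe set read 8.40, 8.44 and 8.44 in A16 and 7.78, 7.60 and 7.59 in Tumor, a difference of -0.79 ± 0.11 (adjusted p 0.00248), while the dimmest one gave 0.034. Sc5d gave 0.32 by its brightest probe set, -0.55 (adjusted p 0.0509) by the next and 0.90 (adjusted p 0.00447) by the dimmest. Idi1 gave 0.24 and Lss 0.032 by their dimmer probe sets, neither past the test. By contrast, the probe sets of Fdft1 (0.84 and 0.77), Cyp51 (0.60 and 0.77) and Hsd17b7 (1.17 and 1.07) gave similar values, and the dimmer one of Nsdhl (1.09) was called higher where the brighter (0.74) was not.

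All 4 probe sets of Scd2 were called higher, where 5.51% of all probe sets were called higher and 6.39% lower. The second read 4.36, 4.39 and 4.46 in A16 and 10.23, 10.17 and 10.05 in Tumor, a difference of 5.70 ± 0.12 (52.1-fold). The other two gave 2.74 ± 0.18 (6.69-fold) and 2.19 ± 0.24 (4.56-fold). The direction was shared, and the size of the fold ranged widely between probe sets of the gene.

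The remaining members with several probe sets were regulators and 2 enzymes. The dimmer probe sets gave -0.42 for Srebf1, 0.13 for Srebf2 and -0.13 for Insig2, none of them past the adjusted p. That of Scap gave -0.94 (adjusted p 0.0451), where the brighter gave -0.36. Fasn gave -0.25 and Elovl6 0.23 by the dimmer probe set, neither past the test.

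**Figure D4:**
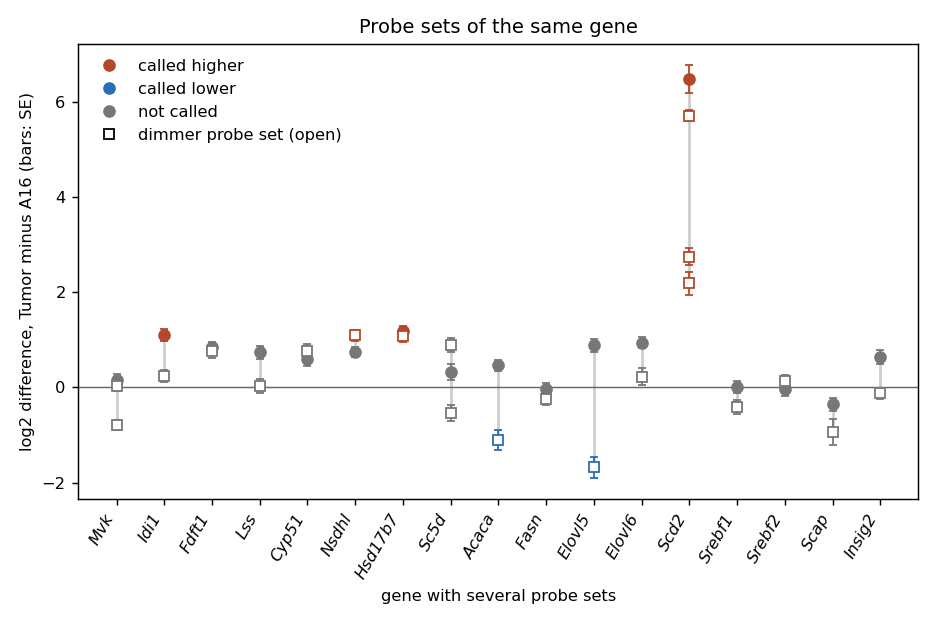
Log2 difference, Tumor minus A16, with its SE (y axis) of every probe set of the 17 members that have several, with the brightest as a filled circle and dimmer ones as open squares. Colours mark calls, and Acaca and Elovl5 have a dimmer probe set called lower at -1.10 and -1.68.

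Promoters of the members were searched on both strands in a window from 250 bases before to 50 bases after the start, which 25 of the 31 measured members had an entry for. CCAAT was found in 19 of the 25 members (76%), against 38.6% of the 11700 array genes with an entry and 37.5% of all 33469 promoters. The 19 were 9 of 12 sterol enzymes, 6 of 8 fatty acid enzymes and 4 of 5 regulators. The GC box GGGCGG was also found in 19 members, against 58.6% of array genes. The E-box CACGTG was found in 4 members (16%), namely Elovl5, Insig1, Sc5d and Scap, against 9.38% of array genes. The sterol regulatory element was searched as SRE-1, as SRE-1 with a base left free, and as the shorter TCACNCCAC, which can overlap the second form. The second form was found in Fdps alone, against 0.12% of array genes. SRE-1 itself and TCACNCCAC were found in 0 members, which says only that these letters are not in these windows. Of the 8 members that rose and had an entry, 6 held CCAAT, a share near the 76% of all members with an entry.

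Lists of genes around the program had smaller median differences. Among all genes, 5.45% were called higher and 5.44% lower, while 17.4% passed the adjusted p upward and 16.6% downward. Of 3 other sterol enzymes measured, 0 were called (median 0.067). Msmo1, the methylsterol monooxygenase, passed the adjusted p at under 2-fold (0.89 ± 0.12, adjusted p 0.00243) and was named after its value was seen. Of 6 measured genes for SREBP cleavage and sterol-regulated degradation, 0 were called (median -0.052). Among these, 1 was higher past the adjusted p, the ubiquitin ligase Rnf139 (0.99), and 1 was lower, Mbtps1 (-0.89), the site-1 protease that makes the first cut in SREBP; both were named after their values were seen.

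Sterol uptake, transport, efflux and esterification had 13 measured genes, of which 1 (7.69%) rose and 0 fell by the brightest probe set. This share is near the 5.45% of all genes called higher. The gene that rose was Abca1, the transporter that passes cholesterol out of the cell to apolipoproteins, known as a target of the liver X receptors. Abca1 read 6.97, 6.99 and 6.94 in A16 and 9.09, 9.23 and 8.97 in Tumor, a 4.28-fold difference (adjusted p 7.73e-05) larger than any spread within a group. All of its probe sets gave a positive difference, the lowest 1.17. The dimmer probe set of Soat1 was called lower, at -1.94 (adjusted p 0.000696), where the brighter gave -0.24 and was not called. Without the fold criterion 5 of the 13 were higher and 1 lower, against 17.4% and 16.6% of all genes. The median of the list was 0.15.

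Other fatty acid and triglyceride synthesis had 16 measured genes, of which 0 were called by the brightest probe set (median 0.20). Past the adjusted p, 7 of the 16 were higher, all at under 2-fold, against 17.4% of all genes at any fold. The dimmer probe set of Plin2 was called higher, at 1.90 (adjusted p 0.000363), where the brighter gave 0.10. Fatty acid oxidation had 8 measured genes, of which 1 rose and 0 fell (median 0.022). It was Cpt1a, the carnitine palmitoyltransferase that admits long fatty acids to mitochondria, which read 9.60, 9.77 and 9.53 in A16 and 10.95, 10.99 and 10.76 in Tumor (2.39-fold, adjusted p 0.00077). Its dimmer probe set went the other way, at -1.07 (adjusted p 0.0265). Past the adjusted p at any fold, 2 of the 8 were higher and 1 was lower, against 17.4% and 16.6% of all genes.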

How the data were processed

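Total RNA of A16 and Tumor cells was hybridised by the authors to Affymetrix rat expression arrays. Per the labels and the submitters' processing notes, the 12 sample records are 6 arrays summarised with RMA and again with PLIER, with no version given in the sources. The deposited values are array intensity on a linear scale, and log2 was taken here. The study's methods name the scanner software and Avadis for background adjustment and normalisation. Of 31099 probe sets, 57 controls were left out and 31042 tested. The platform annotation gave 20826 probe sets 1 gene symbol, 436 several and 9780 none, and 20758 of the first were matched to RefSeq (GRCr8) by Entrez identifier.

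Log2 values of technical replicate 2 and replicate 1 of a group were averaged. Replicate 1 is the only other array with a technical number, a link that the labels do not state outright. Tumor was compared with A16 in limma 3.58.1 under R 4.3.3 (lmFit, eBayes, two-sided, Benjamini-Hochberg over all tested probe sets), which was tested on simulated data. The number of arrays limits the precision. Every member was accounted for, with full values for members called and for those whose probe sets disagreed. Of the other pathway lists, up to 4 called genes each were named. Members and lists were chosen with earlier results of these data known. Alternatives were PLIER, centring arrays on the median, other uses of technical replicate 2, each replicate left out, a filter at the 30th percentile of intensity, the replicate number as a block, eBayes with trend, all probe sets of a gene averaged, and the plain test that a figure legend of the study names.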

Additional observations from a re-analysis of the deposited data

How the results depend on the processing

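Of the 10 members that rose, 8 kept their call under the 12 alternatives other than the plain test, the exceptions being Idi1 (0.97 without Tumor replicate 1, and 0.67 when its probe sets were averaged) and Sqle (0.97 without A16 replicate 1). By PLIER, Elovl6 passed 2-fold (1.15). By the plain test after Benjamini-Hochberg adjustment, 0 sterol and 0 fatty acid enzymes were called higher, against 6 and 4 before adjustment, and over all probe sets 4 were called higher and 8 lower, against 1607 and 1493 before adjustment. Over all probe sets, PLIER called 2293 higher and 2403 lower. Leaving out each replicate in turn, where the lone sample was assumed to vary like the other group, gave 5 to 6 sterol and 4 to 6 fatty acid enzymes higher, and 0 regulators. The medians then ran from 0.76 to 0.85 for the sterol arm and from 0.73 to 1.01 for the fatty acid arm, and the sterol minus fatty acid difference from -0.21 to 0.12. The sterol median was 0.90 with PLIER. The fatty acid median was 0.93 with technical replicate 2 left out, 0.82 with it as a replicate of its own and 0.59 when probe sets of a gene were averaged. The difference between the arms was 0.034 with PLIER, -0.14 with technical replicate 2 left out, -0.0041 with it as a replicate of its own and 0.22 with probe sets averaged. Averaging all probe sets turned Mvk (-0.20), Acaca (-0.32), Elovl5 (-0.40), Srebf1 (-0.21) and Srebf2 (0.051). The other turns were in members at about 0, and the cause was not tested. They were Fasn with PLIER (0.061), and Srebf1 (-0.051) and Srebf2 (0.041) with technical replicate 2 as its own replicate. Leaving out a replicate moved Fasn between -0.17 and 0.098, Srebf1 between -0.13 and 0.14 and Srebf2 between -0.24 and 0.18.

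The replicate numbers did not pair the samples by the labels, and the replicate 1 minus replicate 2 differences of A16 and Tumor correlated at 0.121 over probe sets. With the replicate number as a block, 6 sterol and 4 fatty acid enzymes were called higher, and over all probe sets 1715 were higher and 2035 lower. The medians, 0.81 and 0.88, cannot move under the block in so balanced a design.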
